A study of Mus musculus with 15 samples.

Results

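CD8+ T cells stimulated for 22 h with immunofilaments (IF) were compared with the same kind of cells stimulated for 22 h with dendritic cells (DC), across all genes. The comparison takes the 3 libraries labelled IF-pMHC(SIIT)/IL-2 at 22 h and the 3 labelled DC at 22 h, which are 6 of the 15 libraries of the series, and 10831 of the 17493 genes listed in the count tables had enough reads to be tested. All groups held OT-I T cells of female C57BL/6-Tg(TcraTcrb)1100Mjb/Crl mice, taken from spleen and lymph nodes, whose transgenic receptor recognises an ovalbumin peptide on MHC class I. IF are synthetic filaments that present the SIITFEKL-loaded MHC molecule together with interleukin-2 (IL-2), and they were given at 5 ng/ml. The DC stimulus was 20000 dendritic cells in each well, generated with Flt3 ligand and loaded with SIITFEKL. Each well held 50000 T cells, and viable CD8+ CD103- cells were sorted before RNA extraction. The other groups were DC and IF at 8 h and unstimulated cells at 0 h, with 3 libraries each. The labels number the replicates from 1 to 3 as donors and do not say whether a number is 1 animal or a pool, so p-values measure the spread between these libraries.

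The 2 stimuli differ in what they offer a T cell besides antigen. IL-2 signals through its receptor to JAK kinases and the factor STAT5, while living dendritic cells also provide costimulatory ligands and secrete cytokines such as interleukin-12 and type I interferon. T cell receptor (TCR) signals act through calcium and the MAPK cascade on early transcription factors such as the EGR and NR4A families. Interferons act through STAT factors on antiviral genes, and costimulation through the TNF receptor family acts on NF-kappaB.

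Total counts were 7991069 to 19806730 per library in IF at 22 h and 8032837 to 10992612 in DC at 22 h. IF replicates 2 and 3 share a technical profile: 127 genes lay more than 2-fold below, and 1 gene (Nrgn) more than 2-fold above, each of the other 13 libraries. Mitochondrial ribosomal RNA took 0.179% and 0.146% of their counts, against 3.17% in IF replicate 1 and 1.82% to 4.49% in the 13 libraries that include it. Of the genes that passed the test below, 7 belong to this profile (Eif4e3, Gbp7, Irgm1, Mir5109, Usp42, Xaf1 and Nrgn), and replicate 1 is given separately throughout. Eif4e3 did not pass without IF replicate 2 or 3 (adjusted p = 0.0554 and 0.0633), and Usp42 passed without IF replicate 1 and in no other fit that leaves out 1 library (0.0529 to 0.207). The sorted cells had Cd8a at 541 to 582 CPM (read counts normalised to the TMM-scaled library total) in IF and 697 to 813 CPM in DC, and Cd4 was at 0 in 5 of the 6 libraries and at 1.48 CPM in IF replicate 3. Itgae, which encodes CD103, was detected in all 6 libraries, at 10.2 to 19.4 CPM in IF and 9.84 to 41.7 CPM in DC.

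IF and DC differed at 22 h in 263 genes, or 2.43% of the genes tested (edgeR quasi-likelihood test, Benjamini-Hochberg adjusted p under 0.05). Of these, 133 (1.23% of genes tested) were higher with IF and 130 (1.2%) were lower. A fold change of at least 2 was reached by 74 of the higher and 108 of the lower genes. Values of the 3 IF and the 3 DC libraries did not overlap for 262 of the 263, the exception being 2810417H13Rik, which did not pass with a replicate block (adjusted p = 0.076), against 19.9% of all genes tested. Over all genes tested the log2 fold change had a median of -0.02. With library size alone as the scaling, that median was -0.15 and 88 genes were higher and 180 lower. The number of genes depended on single libraries: 99 passed without IF replicate 2, 90 without IF replicate 3, 119 without DC replicate 1 and 759 without IF replicate 1 (125 of them of the technical profile), while 70 passed when only the 6 libraries were in the fit, 66 of them among the 263.

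**Figure D1:**
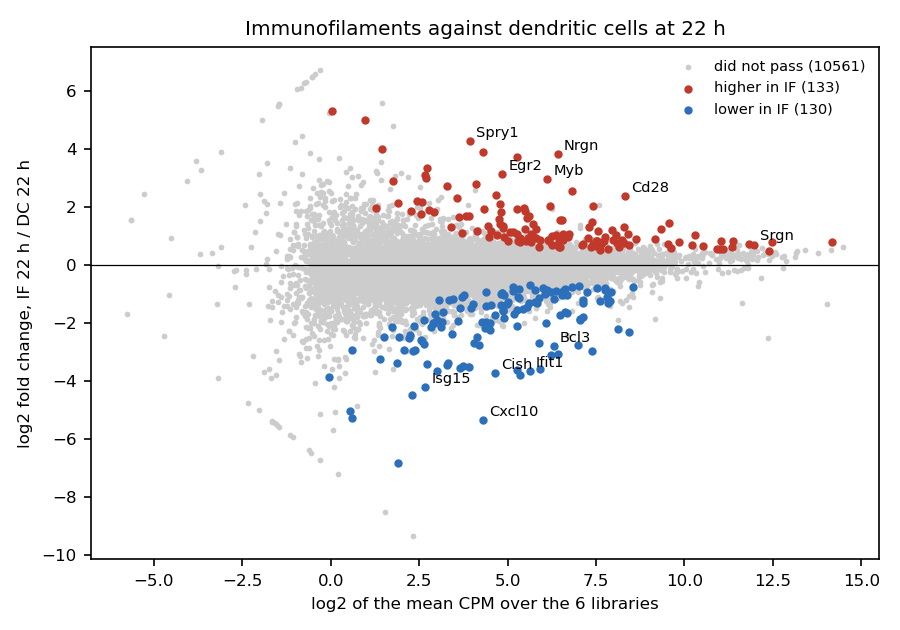
Each point is a gene, with the log2 of its mean CPM over the 6 libraries on the x axis and the log2 fold change of IF over DC at 22 h on the y axis. Genes that passed the test are coloured, 133 higher and 130 lower in IF, and 7 genes at 0 in all 6 libraries are not drawn.

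The genes were read through 25 lists for functions of CD8+ T cells. Of the 130 lower genes, 43 belonged to 1 of the 2 interferon lists, and 66 belonged to any list. Of the 133 higher genes, 37 belonged to any list. In the plot of lists, the interferon, IL-2 and STAT5 and NF-kappaB lists hold lower genes and no higher gene, whereas the MAPK feedback and costimulatory receptor lists hold higher genes and no lower gene. No member passed in the lists for cytokine receptors (23 tested), DNA replication (48), ribosome biogenesis (52), glycolysis (22), cholesterol and fatty acid synthesis (31), amino acid response (33) and nuclear-encoded respiratory chain subunits (57). With 1 library left out, up to 4 respiratory chain subunits and 2 glycolysis genes were higher. Up to 2 cytokine receptors and 3 DNA replication genes were then lower, and the other lists had at most 1 member in either direction. By DESeq2 the lower members numbered 16 in place of 10 in the interferon gamma list and 10 in place of 6 in the IL-2 and STAT5 list, and the higher costimulatory receptors 5 in place of 3. Of the 266 members of the lists in which none passed, 38 had an unadjusted p under 0.05 and DESeq2 called 9. Over all 10831 genes tested, 1656 had an unadjusted p under 0.05 and DESeq2 called 563 (5.2%), against 263 by edgeR. The lists in which none passed therefore do not stand out by either measure.

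**Figure D2:**
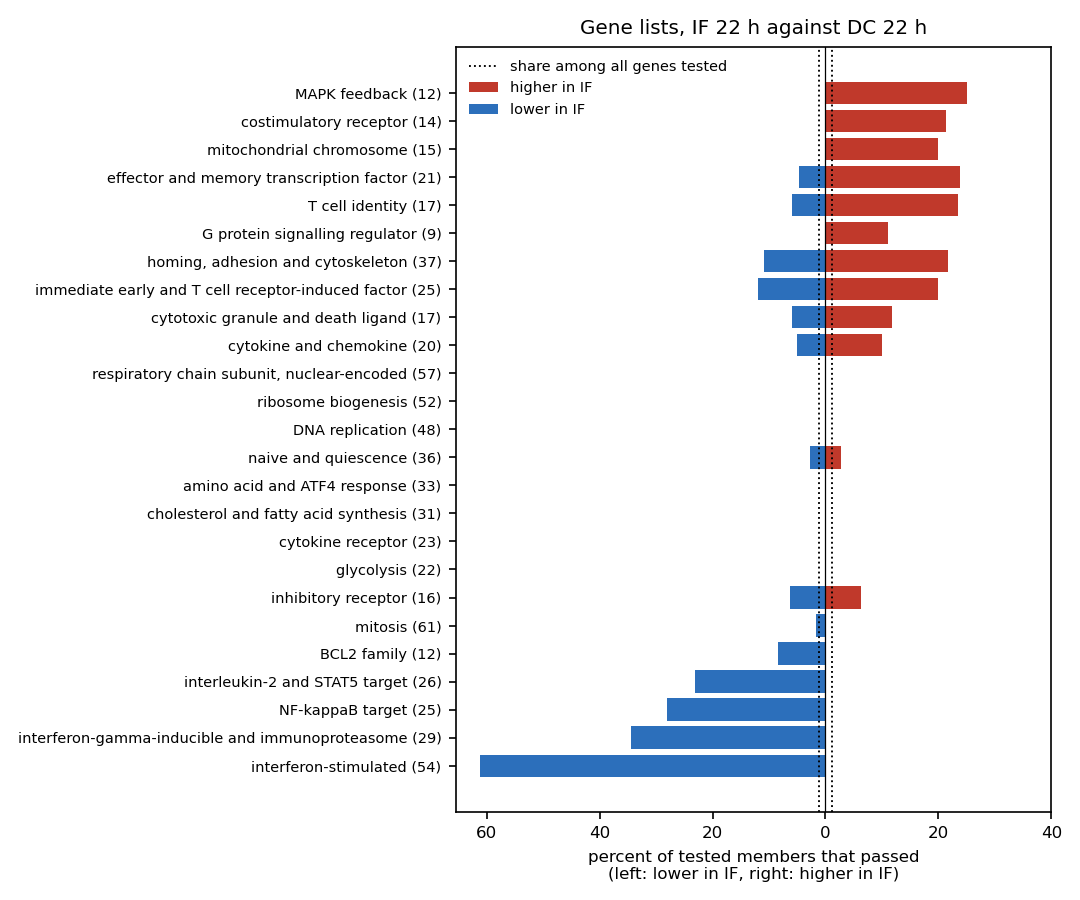
Bars give the percent of each list's tested members (number in brackets) that were lower in IF at 22 h (left) or higher in IF (right) than in DC, and dotted lines mark the 1.2% and 1.23% found among all genes tested. The interferon-stimulated list has the longest bar, with 33 of 54 members lower.

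Genes induced by type I interferon, whose products restrict viruses, were lower with IF as a group. Of 54 tested members, 33 were lower and none higher, against 1.2% lower among all genes. The list's median log2 fold change was -1.31, and 51 of 54 members had a negative value. Values of IF lay below all DC values for 43 members, against 9.11% of all genes tested. IF replicate 1 lay below the DC range for 46 members, against 23.9% of all genes tested. No member was higher under any alternative fit. Without IF replicate 3 the lower members numbered 17, and with only the 6 libraries in the fit 14.

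Isg15, a ubiquitin-like protein made in response to interferon (chr4:156199424-156200818), was at 0.238, 0.478 and 1.02 CPM in IF and 11.3, 12.4 and 12.8 CPM in DC. All 3 IF libraries were below the lowest DC library, with log2 fold change -4.19 ± 0.55 (SE, n = 3 per group), adjusted p = 0.000521, and without IF replicate 3 the fold change was -5.02. Ifit1, which binds viral RNA (chr19:34640871-34650009), was at 9.52, 7.29 and 5.36 CPM in IF and 82.1, 85.9 and 106 CPM in DC, and the groups did not overlap (log2 fold change -3.65 ± 0.48 SE, n = 3 per group, adjusted p = 0.000521). Rtp4, an interferon-inducible receptor chaperone that limits viral replication (chr16:23520291-23614222), was at 15.1, 15.9 and 16.6 CPM in IF and 143, 133 and 129 CPM in DC. The 3 IF libraries lay within 2 CPM of one another (log2 fold change -3.09 ± 0.27, adjusted p = 1.4e-05), and the difference also passed with IF replicate 1 alone (log2 fold change -3.16, adjusted p = 0.0133). Its exons overlap those of Gm45338 on the same strand, so reads of either can have been counted. Xaf1, a gene of the technical profile, was at 7.62, 3.35 and 3.27 CPM in IF and 30.5, 29.5 and 35.2 CPM in DC, so replicate 1 was higher than the other IF libraries and still below DC (log2 fold change -2.77 ± 0.36, adjusted p = 0.000521). Dtx3l, a ubiquitin ligase of the interferon response whose exons overlap Parp9 on the other strand, was at 151, 104 and 93.4 CPM in IF and 276, 278 and 266 CPM in DC (log2 fold change -1.24 ± 0.17, adjusted p = 0.000941). It did not pass with only the 6 libraries in the fit (adjusted p = 0.0524).

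Set beside unstimulated cells, the list was low with IF rather than high with DC. Against 0 h, 36 of 54 members were lower with IF at 22 h (3.44% of all genes tested were) and none was higher, with a median log2 change of -1.39. Against the same 0 h libraries, 4 members were lower (4.35% of all genes) and 2 higher (3.41%) with DC at 22 h, with a median of -0.17. Isg15, for example, was at 9.69 to 24.9 CPM in unstimulated cells, close to the DC values and above all IF values. At 8 h, 5 members were lower with IF than with DC (0.434% of all genes tested were lower) and none was higher.

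**Figure D3:**
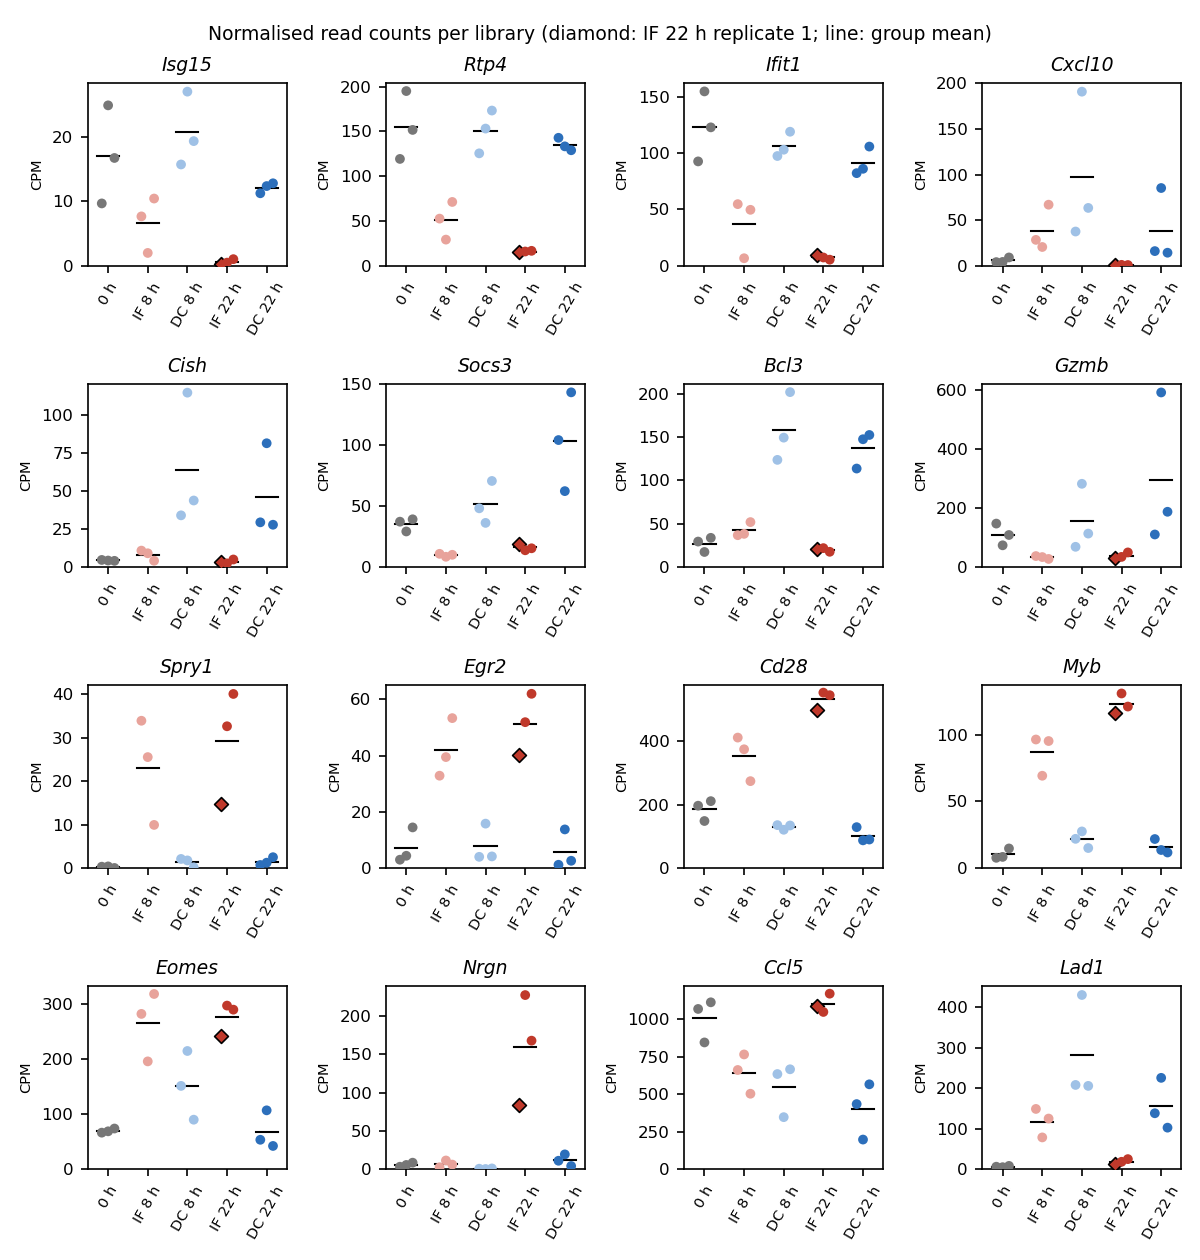
Normalised read counts (CPM, y axis from 0) of 16 genes in every library of the 5 groups. Circles are libraries, diamonds mark IF 22 h replicate 1 and lines are group means; for Isg15, Rtp4, Ifit1 and Bcl3 all IF 22 h libraries lie below all DC 22 h libraries, and for Cd28, Myb and Eomes all lie above.

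Promoters of the lower genes held the binding motif of interferon-activated factors more often than the promoters of all tested genes, which is given as a description with no test. The motif, the interferon-stimulated response element (ISRE), was searched as GAAA, 2 bases of any kind and GAAA on both strands from 250 bases before to 50 bases after each RefSeq gene start (GRCm38.p6), for the 8754 of 10831 tested genes with a window. It was found in 23 of 101 lower genes (22.8%), in 4 of 103 higher genes (3.88%) and in 336 of all 8754 tested genes (3.84%). Windows of the whole table held it in 3.44%. It was present in 17 of 41 tested members of the interferon-stimulated list (41.5%) and in 7 of 70 lower genes that belong to neither interferon list (10.0%). The matches of Isg15, Ifit1 and Cxcl10 are shown because these 3 interferon genes are among the 10 lowest genes of the ranking. Each line runs 5′ to 3′ on the gene's strand, with matches in capitals. The window of Isg15 (chr4:156200860-156200911, minus strand) holds 3 overlapping matches. The 2 matches of Ifit1 (chr19:34640770-34640828, plus strand) are on the opposite strand and so read TTTC, 2 bases and TTTC. Cxcl10 (chr5:92349078-92349117, minus strand) has 1 match.
Isg15: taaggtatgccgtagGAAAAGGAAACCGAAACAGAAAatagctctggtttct
Ifit1: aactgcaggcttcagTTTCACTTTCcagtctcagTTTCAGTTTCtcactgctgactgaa
Cxcl10: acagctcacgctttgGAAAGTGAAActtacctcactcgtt
The windows of Xaf1 and Dtx3l hold no such letters. Rtp4 has no window in the table used.

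Genes driven mainly by interferon gamma, which T cells themselves secrete, and genes of the immunoproteasome were also lower with IF. Of 29 tested members, 10 were lower and none higher, the median log2 fold change was -0.94, and all 29 values were negative. Their motif share was 12 of 22 windows (54.5%). Cxcl10, a chemokine that attracts activated T cells (chr5:92346638-92348889), was at 1.19, 0.956 and 0.766 CPM in IF and 16, 85.3 and 14.3 CPM in DC, with DC replicate 2 far above the other DC libraries (log2 fold change -5.34 ± 0.86, adjusted p = 0.00249). Without that library the log2 fold change was -4.01. Its exons overlap Art3 on the other strand. Irgm2, an interferon-inducible GTPase that shares exonic bases with Igtp on the same strand, was at 20.6, 18.2 and 19.6 CPM in IF and 62.8, 72.9 and 35.7 CPM in DC (log2 fold change -1.55 ± 0.27, adjusted p = 0.00414). Psmb9, a catalytic subunit of the immunoproteasome whose exons overlap Tap1, was at 24.4, 25.8 and 24.3 CPM in IF and 53.9, 68.1 and 42 CPM in DC (log2 fold change -1.14 ± 0.21, adjusted p = 0.00804). Psmb9 did not pass without IF replicate 3 (adjusted p = 0.0515) or with only the 6 libraries in the fit (0.0651), and Irgm2 did not in the latter (0.0524). The GTPase genes Gbp7 and Irgm1 belong to the technical profile: Gbp7 was at 106, 39.1 and 23.9 CPM in IF and 178, 271 and 171 CPM in DC, and Irgm1 at 10.8, 1.55 and 1.38 CPM in IF and 24.6, 45 and 16 CPM in DC. In both, IF replicate 1 lay below DC and well above the other IF libraries, and without IF replicate 2 or 3, or DC replicate 1 or 2, neither passed (adjusted p from 0.0531 to 0.154), nor with only the 6 libraries in the fit (0.185 for Gbp7 and 0.211 for Irgm1). Without IF replicate 1 their log2 fold changes were -2.72 and -4.28, against -1.88 and -2.69 with it. Against 0 h, 5 of the 29 members were lower with IF and 8 were higher with DC, and at 8 h none differed between IF and DC. The count of 10 was 6 without IF replicate 1, 4 without IF replicate 2, DC replicate 1 or DC replicate 2, 2 without IF replicate 3, and 1 with only the 6 libraries in the fit.

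Targets of IL-2 and STAT5, the pathway of the cytokine carried by IF, were lower with IF than with DC where they differed. Of 26 tested members, 6 were lower and none higher, with a median log2 fold change of -0.69. Cish, a SOCS family inhibitor induced by STAT5 (chr9:107296026-107302784), was at 3.09, 2.27 and 4.85 CPM in IF and 29.4, 81.5 and 27.8 CPM in DC. All 3 IF libraries were below 5 CPM and DC replicate 2 was the highest (log2 fold change -3.71 ± 0.53, adjusted p = 0.000973, and a log2 fold change of -3.02 without that library). In unstimulated cells Cish was at 3.96 to 4.55 CPM, and at 8 h it was also lower with IF (log2 fold change -3.00, adjusted p = 0.0108 in the same test). Antisense and pseudogene models overlap its exons. Socs3, a feedback inhibitor of cytokine receptors acting through STAT3 (chr11:117966079-117970047), was at 19.2, 13.6 and 15.3 CPM in IF and 104, 62.3 and 143 CPM in DC, and no library overlapped (log2 fold change -2.69 ± 0.30, adjusted p = 0.000133). Its log2 fold change against 0 h was -1.13 with IF (adjusted p = 0.0293) and 1.56 with DC (adjusted p = 0.00314). Pim2, a survival kinase, was at 88.2, 119 and 104 CPM in IF and 193, 194 and 207 CPM in DC (log2 fold change -0.93 ± 0.18, adjusted p = 0.00913). Socs2, another member of the family, was at 1.43, 1.43 and 1.94 CPM in IF and 27.4, 12.7 and 13.7 CPM in DC (log2 fold change -3.45 ± 0.70, adjusted p = 0.0144). The anti-apoptotic gene Bcl2l1 was at 6.78, 10.4 and 10.1 CPM in IF and 32, 55.3 and 21.7 CPM in DC (log2 fold change -1.99 ± 0.41, adjusted p = 0.0167). Pim2 did not pass without IF replicate 3 (adjusted p = 0.0515), Socs2 without IF replicate 2 or 3 or DC replicate 1 (0.0633 to 0.0811), and Bcl2l1 without IF replicate 2 or 3 or DC replicate 2 (0.051 to 0.0633), and without IF replicate 3 the count of 6 fell to 2. With only the 6 libraries in the fit, 3 members were lower, and Pim2 (0.0577) and Bcl2l1 (0.0545) did not pass. Against 0 h, 4 of the 26 members were higher (2.63% of all genes were) and 3 lower with IF, and 8 were higher and 1 lower with DC.

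A STAT motif, TTCNNNGAA on both strands, was searched after the values were seen. It was found in 20 of 101 lower genes (19.8%), 7 of 103 higher genes (6.8%) and 735 of 8754 tested genes (8.4%). The match of Socs3 (chr11:117969497-117969535, minus strand, GRCm38.p6) is shown as the example among the named targets, with the matched letters in capitals, while the windows of Cish and Bcl3 hold none and Socs2 has no window in the table.
Socs3: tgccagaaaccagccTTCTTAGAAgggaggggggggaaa
Matches of the ISRE and STAT motifs overlapped in 11 of 11078 windows of tested genes, those of the ISRE and NF-kappaB motifs in 3, and those of the NF-kappaB and STAT motifs in 16.

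Targets and regulators of NF-kappaB were lower with IF: 7 of 25 tested members, with none higher and a median log2 fold change of -0.46. Bcl3, an atypical inhibitor protein that joins NF-kappaB subunits in the nucleus (chr7:19808462-19822770), was at 20.9, 21.6 and 17.4 CPM in IF and 114, 147 and 152 CPM in DC. The highest IF library was more than 5-fold below the lowest DC library (log2 fold change -2.79 ± 0.26, adjusted p = 2.04e-05), IF replicate 1 alone also differed (log2 fold change -2.72, adjusted p = 0.0178), and the antisense model Gm16175 overlaps its exons. Against 0 h, Bcl3 was higher with DC (log2 fold change 2.37, adjusted p = 4.84e-05) and had a value of -0.41 with IF (adjusted p = 0.38). Nfkbia, which encodes the inhibitor I-kappaB alpha, was at 168, 135 and 122 CPM in IF and 298, 296 and 397 CPM in DC (log2 fold change -1.22 ± 0.18, adjusted p = 0.00123). Nfkb2, the precursor of the p52 subunit, was at 80, 89.4 and 84.7 CPM in IF and 187, 224 and 177 CPM in DC (log2 fold change -1.21 ± 0.20, adjusted p = 0.0036). Groups did not overlap for either. Icam1, an adhesion molecule and NF-kappaB target, was at 65.2, 63.9 and 55.2 CPM in IF and 119, 104 and 149 CPM in DC (log2 fold change -1.01 ± 0.18, adjusted p = 0.00521). Cd83, a surface protein best known from mature dendritic cells, was at 1.43, 2.99 and 5.67 CPM in IF and 20.5, 21.1 and 12.6 CPM in DC (log2 fold change -2.36 ± 0.51, adjusted p = 0.0201). Cd83 had a log2 fold change of -3.02 without IF replicate 3. It did not pass without IF replicate 2 (adjusted p = 0.106) or DC replicate 1 (0.0646), the count of 7 was 4 without IF replicate 2, and with only the 6 libraries in the fit it was 3, with Icam1 and Cd83 (both 0.0683) among those lost. Against 0 h, 2 members were higher and 4 lower with IF, and 6 higher and 1 lower with DC; at 8 h, 6 were lower with IF than with DC.

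The NF-kappaB motif was searched as GGGA, 4 bases of any kind and CC on both strands. It was in 13 of 20 windows of this list (65.0%), against 30.1% of tested genes, 33.7% of the lower and 27.2% of the higher genes. The stretches of Nfkbia (chr12:55492652-55492874, minus strand) and Cxcl10 (chr5:92348968-92349063, minus strand) are shown because each holds 2 matches, in capitals, and both genes were lower with IF.
Nfkbia: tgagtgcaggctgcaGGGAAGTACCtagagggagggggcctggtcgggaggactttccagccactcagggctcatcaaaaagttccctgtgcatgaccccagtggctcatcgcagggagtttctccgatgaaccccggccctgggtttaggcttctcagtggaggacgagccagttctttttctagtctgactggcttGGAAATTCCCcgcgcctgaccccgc
Cxcl10: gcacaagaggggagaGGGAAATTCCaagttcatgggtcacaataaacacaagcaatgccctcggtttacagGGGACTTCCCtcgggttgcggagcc
Bcl3 has no match in its window.

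The early factors of TCR signalling moved in both directions. Of 25 tested members, 5 were higher with IF (Egr1, Nab2, Nfatc1, Nr4a2 and Egr2) and 3 lower (Jun, Junb and Bhlhe40, the last named after its values were seen), with a median log2 fold change of 0.42. Egr1, an immediate early zinc finger factor on chromosome 18, was at 39, 47 and 47.7 CPM in IF and 7.4, 15 and 8.89 CPM in DC. All IF libraries were above all DC libraries (log2 fold change 2.10 ± 0.31, adjusted p = 0.00114) and close to the 39.3 to 47.6 CPM of unstimulated cells. Nab2, a co-repressor that binds EGR proteins, was at 120.2, 157 and 138 CPM in IF and 38.6, 70.9 and 30.6 CPM in DC (log2 fold change 1.57 ± 0.27, adjusted p = 0.00489), and its exons overlap Stat6 on the other strand. Egr2, a related factor linked to restraint of T cell activation, was at 40.4, 51.9 and 62 CPM in IF and 1.14, 13.7 and 2.56 CPM in DC (log2 fold change 3.16 ± 0.73, adjusted p = 0.0283), and Nr4a2, an orphan nuclear receptor induced by the TCR, at 12.4, 11.5 and 10.7 CPM in IF and 2.28, 2.1 and 0 CPM in DC (log2 fold change 3.01 ± 0.69, adjusted p = 0.0282). Nfatc1, a calcium-regulated factor, was at 242, 241 and 294 CPM in IF and 102, 155 and 86.1 CPM in DC (log2 fold change 1.18 ± 0.23, adjusted p = 0.00926). Several of these calls rested on single libraries: Egr2 lost its call without IF replicate 2 or 3 or DC replicate 1 or 3 (adjusted p from 0.0834 to 0.1), Nr4a2 without IF replicate 2 or 3 or DC replicate 1 (0.0547 to 0.0841) and Nfatc1 without IF replicate 3 (0.0547) or DC replicate 1 (0.057). Without DC replicate 2 the log2 fold change of Egr2 was 4.74, and without DC replicate 3 that of Nr4a2 was 2.39. The count of 5 higher members was 3 without IF replicate 2, 2 without IF replicate 3 or DC replicate 1 and 8 without DC replicate 2. With only the 6 libraries in the fit Egr1 alone of them passed (the others had adjusted p from 0.0691 to 0.197).

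Jun and Junb, subunits of the AP-1 factor, were far below their unstimulated level at 22 h, and further below it with IF. Jun, whose exons overlap Junos on the other strand, was at 7.74, 5.74 and 4.03 CPM in IF and 28.2, 135 and 48.9 CPM in DC, against 512 to 881 CPM at 0 h. All IF libraries were lower than all DC libraries, among which DC replicate 2 was the highest (log2 fold change -3.63 ± 0.47, adjusted p = 0.000491, and a log2 fold change of -2.77 without that library). Junb was at 66.1, 64.3 and 71 CPM in IF and 123, 132 and 159.8 CPM in DC (log2 fold change -1.04 ± 0.17, adjusted p = 0.00246), against 626 to 777 CPM at 0 h, and its exons overlap Prdx2. Bhlhe40, a factor that supports cytokine production, was at 3.33, 4.3 and 3.16 CPM in IF and 9.33, 22 and 10.8 CPM in DC (log2 fold change -1.97 ± 0.43, adjusted p = 0.0219). It did not pass without IF replicate 2 (adjusted p = 0.072) or 3 (0.126) or DC replicate 2 (0.0757), or with only the 6 libraries in the fit (0.0688).

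Feedback inhibitors of the MAPK cascade were higher with IF in 3 of 12 tested members, with none lower and a median log2 fold change of 0.58. Spry1, a Sprouty protein that restrains receptor-driven ERK signalling (chr3:37639947-37644598), was at 14.8, 32.6 and 40.1 CPM in IF and 0.683, 1.22 and 2.48 CPM in DC. It had the highest fold change of the genes named by rule (log2 fold change 4.27 ± 0.64, adjusted p = 0.00126, and a log2 fold change of 4.92 without DC replicate 3). IF replicate 1 was the lowest IF library and about 6 times the highest DC library, and unstimulated cells had at most 0.361 CPM. The difference was also present at 8 h (log2 fold change 4.06, adjusted p = 0.00593). Dusp2, a nuclear MAPK phosphatase, was at 317, 321 and 398 CPM in IF and 179, 165 and 103 CPM in DC (log2 fold change 1.22 ± 0.24, adjusted p = 0.0124), and Dusp6, a phosphatase of ERK, at 8.69, 14.7 and 12.4 CPM in IF and 4.21, 2.65 and 3.16 CPM in DC (log2 fold change 1.83 ± 0.40, adjusted p = 0.0214). Dusp2 did not pass without IF replicate 3 (adjusted p = 0.0657), and Dusp6 did not without IF replicate 2 or 3 or without DC replicate 1, 2 or 3 (0.0503 to 0.108) or with thinned counts (0.0648). Without IF replicate 3 the count of 3 was 1. With only the 6 libraries in the fit Spry1 alone of the 3 passed (0.0688 for Dusp2 and 0.061 for Dusp6). Among 9 tested regulators of G protein signalling, Rgs16, which accelerates GTP hydrolysis by G alpha subunits, was at 31.1, 44.2 and 36.1 CPM in IF and 0.455, 7.19 and 0 CPM in DC (log2 fold change 3.89 ± 0.98, adjusted p = 0.045). It did not pass without IF replicate 2 or 3 or DC replicate 1 or 3 (adjusted p from 0.0721 to 0.163), by DESeq2 (0.0837), with library size alone (0.055) or with only the 6 libraries in the fit (0.185), and its log2 fold change was 7.42 without DC replicate 2 and 3.27 without DC replicate 3.

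Among 14 tested costimulatory receptors, 3 were higher with IF and none lower, with a median of 0.49. Cd28, the receptor for CD80 and CD86 (chr1:60716800-60773359), was at 498, 554 and 546 CPM in IF and 129, 87.3 and 89.9 CPM in DC. The IF values were about 5 times the DC values (log2 fold change 2.38 ± 0.20, adjusted p = 1.4e-05), and IF replicate 1 alone differed from DC with a log2 fold change of 2.29, adjusted p = 0.00225. Unstimulated cells lay between both groups, at 148 to 211 CPM: against them Cd28 was higher with IF (log2 fold change 1.52, adjusted p = 0.000164) and lower with DC (-0.86, adjusted p = 0.0109). Slamf1 and Cd2, adhesion and signalling receptors of the same superfamily, were at 18, 19.6 and 26.7 CPM in IF and 7.85, 5.31 and 6.67 CPM in DC and at 384, 476 and 415 CPM in IF and 275, 215 and 295 CPM in DC. Both passed (log2 fold change 1.70 ± 0.37, adjusted p = 0.0221 for Slamf1, log2 fold change 0.70 ± 0.15, adjusted p = 0.0221 for Cd2), but Slamf1 not without any 1 of IF replicates 2 and 3 or DC replicates 1 to 3 (0.0574 to 0.126) and Cd2 not without IF replicate 2 or 3 or DC replicate 1 or 2 (0.0582 to 0.13) or with only the 6 libraries in the fit (0.193). The count of 3 was 1 without IF replicate 2, IF replicate 3 or DC replicate 1 and 5 without IF replicate 1. Of 16 inhibitory receptors, Cd5 was higher, at 90.2, 90.7 and 94.5 CPM in IF and 59.6, 40.5 and 55.5 CPM in DC (log2 fold change 0.82 ± 0.16, adjusted p = 0.0127), and Ctla4 lower, at 8.33, 10.3 and 8.01 CPM in IF and 21.7, 18.7 and 13.9 CPM in DC (log2 fold change -1.03 ± 0.25, adjusted p = 0.0369). Cd5 did not pass without IF replicate 2 (0.0539) or 3 (0.0633) or with only the 6 libraries in the fit (0.145). Ctla4 did not without any 1 library other than DC replicate 3 (0.0525 to 0.189), with only the 6 libraries (0.133), with thinned counts (0.0737), without a filter (0.0758) or with a replicate block (0.0513). Cd5 also belongs to the 17 tested T cell identity genes, of which Cd3e, Cd3g and Cd6 were also higher and Ubash3a, a phosphatase that damps TCR signals, was lower. Log2 fold changes of these 4 were 0.75, 0.80, 0.63 and -0.81. The list's count of 4 higher genes was 0 without IF replicate 2 or 3, 1 without DC replicate 1, 2 without DC replicate 2 or when scaled by library size alone, and 0 with only the 6 libraries in the fit, where Ubash3a did not pass either (0.1248). Ubash3a also did not pass without IF replicate 2 (0.0792) or 3 (0.121) or DC replicate 1 (0.116). Without DC replicate 2, Cd5 alone of the 4 named higher genes passed. Cd3e, Cd3g and Cd6 did not pass without IF replicate 2 or 3 or DC replicate 1 or 2, and Cd6 not without DC replicate 3 (adjusted p from 0.0631 to 0.266). With a replicate block the count was 2, and Cd3e (0.0584) and Cd6 (0.0533) did not pass.

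Transcription factors of effector and memory CD8+ T cells differed in 6 of 21 tested members, 5 of them higher. Myb, which sustains self-renewing memory precursors (chr10:21124935-21160984), was at 116, 131 and 121 CPM in IF and 21.7, 13.5 and 11.6 CPM in DC. Its IF values were more than 5 times the highest DC value (log2 fold change 2.98 ± 0.29, adjusted p = 3.88e-05), and they were also higher in IF replicate 1 alone (log2 fold change 2.90, adjusted p = 0.00589) and at 8 h (2.02, adjusted p = 0.00144). Eomes, a T-box factor of memory and cytotoxic cells (chr9:118478212-118486132), was at 240.4, 296 and 289 CPM in IF and 53.2, 107 and 42 CPM in DC (log2 fold change 2.04 ± 0.33, adjusted p = 0.00249), against 66.1 to 73.5 CPM in unstimulated cells. Antisense models overlap exons of Myb and Eomes. Runx3, which specifies the CD8 lineage, was lower, at 65.1, 34.7 and 25.3 CPM in IF and 127, 118 and 164 CPM in DC (log2 fold change -1.72 ± 0.28, adjusted p = 0.00315), and IF replicate 1 lay about 2-fold above the other IF libraries. With only the 6 libraries in the fit Runx3 had an adjusted p of 0.0753. Zeb2, Hopx and Id3, the last named after its values were seen, had log2 fold changes of 2.14, 1.04 and 0.84. None of these 3 passed without IF replicate 2 or without IF replicate 3 (adjusted p from 0.0515 to 0.164), and the count of 5 higher factors was 2. It was 3 without DC replicate 1 or 2 and 2 with only the 6 libraries in the fit or with thinned counts, where Zeb2, Hopx and Id3 again did not pass (0.0511 to 0.126). With library size alone it was 3, and Hopx (0.0502) and Id3 (0.0726) did not pass. The count of 1 lower factor was 3 without IF replicate 1 and 2 without DC replicate 2.

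Cytotoxic genes and chemokines did not move as blocks. Of 17 tested cytotoxic genes, Srgn and Cst7 were higher and Gzmb lower with IF. Gzmb, the granule protease granzyme B (chr14:56258838-56262260), was at 31.1, 33.7 and 48.9 CPM in IF and 109.7, 591 and 187 CPM in DC, with DC replicate 2 the highest by about 3-fold (log2 fold change -2.96 ± 0.56, adjusted p = 0.00804, and a log2 fold change of -1.97 without that library). Unstimulated cells, at 73.0 to 147 CPM, overlapped DC and were above IF. Gzmb did not pass without IF replicate 2 (adjusted p = 0.0554) or with only the 6 libraries in the fit (0.0683). Srgn, the proteoglycan core of cytotoxic granules, was at 4516, 5276 and 5082 CPM in IF and 3252, 2914 and 2912 CPM in DC (log2 fold change 0.71 ± 0.12, adjusted p = 0.00315); its adjusted p was 0.0753 with only the 6 libraries in the fit. Cst7, an inhibitor of granule cathepsins, was at 69.5, 86.3 and 79.7 CPM in IF and 41.1, 52.2 and 35.1 CPM in DC (log2 fold change 0.88 ± 0.20, adjusted p = 0.0295) and did not pass without IF replicate 2 or 3 or DC replicate 1 or 3 (0.0967 to 0.154), with only the 6 libraries in the fit (0.126), with thinned counts (0.0612) or with library size alone (0.0622). The count of 2 higher cytotoxic genes was 1 without any 1 of these 4 libraries. Of 20 tested cytokine and chemokine genes, Ccl9 and Ccl5 were higher and Cxcl10 was lower. The count of 2 higher genes was 1 without IF replicate 3 or DC replicate 1 and 5 without DC replicate 2, and that of 1 lower gene was 2 without IF replicate 1 or DC replicate 3. Ccl9 was at 12.5, 22.6 and 16.1 CPM in IF and 2.16, 2.88 and 2.65 CPM in DC (log2 fold change 2.73 ± 0.35, adjusted p = 0.000491) and Ccl5, a chemokine stored by memory CD8+ T cells, at 1084, 1047 and 1169 CPM in IF and 433, 197 and 565 CPM in DC (log2 fold change 1.47 ± 0.30, adjusted p = 0.0165). Ccl5 did not pass without IF replicate 3 (0.0631) or DC replicate 1 (0.0547) or with only the 6 libraries in the fit (0.1248). Ccl4, at 201, 338 and 398 CPM in IF and 25.5, 169 and 25.6 CPM in DC, did not pass (adjusted p = 0.0686) but did without DC replicate 2 (0.000172) or IF replicate 1 (0.0265), with a replicate block (0.0281) and without a filter (9.38e-13). The cytokine gene Lif was at 0 in all 3 IF libraries and at 0.683, 29.5 and 0.0855 CPM in DC replicates 1, 2 and 3, so that only DC replicate 2 stood out. It did not pass (adjusted p = 0.0588), but did by DESeq2 (0.00292), without a filter (5.21e-11) and without DC replicate 3 (0.0233). The fit without a filter estimates the spread from 17123 genes in place of 10831, many of them near 0. So small a value does not measure the spread of these 3 DC libraries, and other values from that fit have the same limit.

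Genes of homing, adhesion and the cytoskeleton held 8 higher and 4 lower members among 37 tested, with a median of 0.42. Lad1, an anchoring filament protein (chr1:135818598-135833342), was at 11.9, 18 and 24.7 CPM in IF and 138, 225 and 102 CPM in DC. IF values were all below DC (log2 fold change -3.08 ± 0.38, adjusted p = 0.000378), also in replicate 1 alone (log2 fold change -3.70, adjusted p = 0.0235), and both groups lay above the 4.70 to 7.91 CPM of unstimulated cells. Ccr9, the gut-homing chemokine receptor, was at 160.3, 129 and 143 CPM in IF and 312, 296 and 306 CPM in DC (log2 fold change -1.08 ± 0.14, adjusted p = 0.000491), and its annotated span overlaps exons of Slc6a20a. Icam1, given above, and Vim, an intermediate filament protein named after its values were seen, were the other lower members. Vim was at 42.5, 44.3 and 45 CPM in IF and 83.8, 80.6 and 100.4 CPM in DC (log2 fold change -1.01 ± 0.21, adjusted p = 0.0165) and did not pass without IF replicate 2 (0.0769) or 3 (0.0689) or DC replicate 3 (0.0515). The annexin gene Anxa2 and its partner S100a10 were higher with IF, at 33, 48.5 and 44.9 CPM in IF and 14.7, 17 and 18 CPM in DC for Anxa2 (log2 fold change 1.34 ± 0.20, adjusted p = 0.00123) and at 863, 995 and 850.0 CPM in IF and 481, 259 and 411 CPM in DC for S100a10 (log2 fold change 1.23 ± 0.20, adjusted p = 0.003). S100a11, a related calcium-binding protein, was at 405, 469.6 and 452 CPM in IF and 202, 111 and 221 CPM in DC (log2 fold change 1.31 ± 0.22, adjusted p = 0.00327), and Cxcr4, the receptor for CXCL12 named after its values were seen, at 63.9, 67.6 and 51.3 CPM in IF and 13.3, 8.52 and 25.5 CPM in DC (log2 fold change 1.94 ± 0.36, adjusted p = 0.00795). Without DC replicate 1 Cxcr4 had an adjusted p of 0.0501 and the count of 8 was 5. With only the 6 libraries in the fit that count was 1, and S100a10 (0.0688), S100a11 (0.0736) and Cxcr4 (0.0688) did not pass.

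The remaining genes at the top of the ranking have no shared list. Nrgn, a calmodulin-binding protein known from neurons (chr9:37544492-37552904), was at 83.7, 228 and 168 CPM in IF and 10.9, 19.2 and 4.02 CPM in DC. It is the 1 gene of the technical profile that is high in IF replicates 2 and 3, and replicate 1 was also above every DC library (log2 fold change 3.82 ± 0.56, adjusted p = 0.00113). Its log2 fold change was 2.88 with replicate 1 alone (adjusted p = 0.161) and 4.42 without DC replicate 2. Chst2, a sulfotransferase, was at 10.2, 11.1 and 14.5 CPM in IF and 0.91, 1.99 and 0.598 CPM in DC (log2 fold change 3.36 ± 0.59, adjusted p = 0.00505, and 3.97 without DC replicate 2). Pou2af1, a coactivator of octamer-binding factors best known in B cells (chr9:51213708-51240080), was at 45.9, 83.7 and 83.4 CPM in IF and 4.78, 1.77 and 9.23 CPM in DC (log2 fold change 3.73 ± 0.52, adjusted p = 0.000849, and 4.44 without DC replicate 3). Itm2a, Ephx1 and Ctla2a were named because they passed with IF replicate 1 alone. Itm2a, a membrane protein induced in activated T cells, was at 134, 208 and 237 CPM in IF and 28.5, 46.2 and 24.2 CPM in DC (log2 fold change 2.55 ± 0.27, adjusted p = 9.1e-05), the epoxide hydrolase gene Ephx1 at 105, 119 and 133 CPM in IF and 27.7, 22.2 and 35.8 CPM in DC (log2 fold change 2.06 ± 0.21, adjusted p = 4.5e-05), and the protease inhibitor gene Ctla2a at 70.6, 78.8 and 62.9 CPM in IF and 21.2, 19 and 13.3 CPM in DC (log2 fold change 1.99 ± 0.23, adjusted p = 0.000186). Other models on the same strand share exonic bases with Ephx1 and Ctla2a, and models on either strand with Spry1, Rgs16, Nfkb2, Icam1, Anxa2, Zeb2, Hopx, Cd3e, Ms4a4c, Tbc1d30, Syt6, Ciita and Top2a. Lyz1 (log2 fold change 3.11) and Tbc1d30 (2.90) lost their calls without IF replicate 2 or 3 or DC replicate 1, and Lyz1 also without DC replicate 3 and Tbc1d30 without DC replicate 2 (adjusted p from 0.0646 to 0.151). Tbc1d30 did not pass with only the 6 libraries in the fit (0.105), thinned counts (0.107) or a replicate block (0.0707), and its value was 4.10 without DC replicate 3.

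At the other end, Igfbp4, which binds insulin-like growth factors and is high in naive T cells (chr11:99041244-99054392), was at 11.4, 4.3 and 11.9 CPM in IF and 56.7, 109 and 167 CPM in DC. Unstimulated cells had 573 to 637 CPM, DC cells were below that and IF cells lower again, with no overlap (log2 fold change -3.57 ± 0.50, adjusted p = 0.000849). It was the 1 lower member of the 36 tested naive and quiescence genes, and Ms4a4c, at 179.9, 221 and 216 CPM in IF and 124, 94.8 and 101 CPM in DC (log2 fold change 0.95 ± 0.19, adjusted p = 0.014), the 1 higher member, which did not pass without IF replicate 2 (0.0752) or 3 (0.0657) or with only the 6 libraries in the fit (0.0688). Without IF replicate 1, 8 members of that list were lower, 3 were without DC replicate 2, 2 by DESeq2 and 4 without a filter. Asb2, the substrate receptor of a ubiquitin ligase (chr12:103321142-103356001), was at 1.79, 2.27 and 1.84 CPM in IF and 18.1, 27.5 and 23.5 CPM in DC (log2 fold change -3.55 ± 0.61, adjusted p = 0.00402), against 0.587 to 2.79 CPM in unstimulated cells. Syt6 and Olfml3 had log2 fold changes of -4.48 and -3.65 and lost their calls without IF replicate 2 or DC replicate 1 or 3, and Syt6 also without IF replicate 3 (adjusted p from 0.0589 to 0.189). The value of Syt6 was -5.51 without IF replicate 2 and -3.59 without DC replicate 3, and that of Olfml3 -4.77 without IF replicate 3 and -3.03 without DC replicate 3. With only the 6 libraries in the fit neither passed (0.0722 for Syt6 and 0.119 for Olfml3), and Syt6 did not with a replicate block (0.0823). A row labelled Mir5109 also met the naming rule, and it could not be matched to the annotation, so no value is given.

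Markers of other cell types moved with these groups, given here as the summed CPM of each list on the plain library total. B cell markers (14 genes) summed to 90.0 to 143 in IF and 12.1 to 40.1 in DC, and Pou2af1 took most of that sum in IF. All 9 tested B cell markers had positive log2 fold changes (median 2.12), 6 did not overlap, and Pou2af1 alone passed. Libraries did not overlap, with IF above DC, for 10.7% of all genes tested. Among the defining B cell markers given here, Ms4a1 had at most 14 counts in any of the 6 libraries, and Vpreb3 had none. Natural killer (NK) cell markers (11 genes) summed to 976 to 1079 in IF and 430 to 691 in DC. Of the 8 tested NK markers 7 had positive values (median 1.28) and 7 did not overlap. Eomes, Klrk1 and Fcer1g, which activated CD8+ T cells also express, passed as higher. The NK receptor genes Klrb1c and Klre1, named after their values were seen, were at 12.6, 11.8 and 13.2 CPM in IF and 6.49, 0.664 and 5.73 CPM in DC and at 13.1, 6.69 and 10.8 CPM in IF and 5.24, 2.1 and 6.41 CPM in DC and did not pass (adjusted p = 0.17 and 0.159, with Klrb1c at 0.0289 without a filter), while Ncr1 had 4 counts in 1 IF library and Klra8 had none. Klrk1, the activating receptor NKG2D, was at 69.6, 77.6 and 75.4 CPM in IF and 19.6, 20.5 and 28.1 CPM in DC (log2 fold change 1.71 ± 0.22, adjusted p = 0.000491). Fcer1g, a signalling adaptor, was at 77.5, 87.6 and 70.8 CPM in IF and 23.2, 32.6 and 42.1 CPM in DC (log2 fold change 1.26 ± 0.27, adjusted p = 0.0206) and did not pass without IF replicate 2 or 3 or DC replicate 1 (0.0515 to 0.1), or with only the 6 libraries in the fit (0.0688). Macrophage and monocyte markers (16 genes) summed to 32.9 to 47.6 in IF and 17.7 to 19.9 in DC. All 7 tested members had positive values (median 1.33), 4 did not overlap, and Lyz1 passed. Ccr2, a chemokine receptor of monocytes and T cells, was at 7.98, 5.74 and 5.1 CPM in IF and 0.228, 0 and 1.88 CPM in DC (adjusted p = 0.0781, and 0.00661 by DESeq2, 0.0341 with thinned counts, 0.00271 without a filter and 0.00721 without DC replicate 3) and Cd68, a lysosomal protein, at 5.36, 14.1 and 8.22 CPM in IF and 5.24, 1.66 and 1.03 CPM in DC (adjusted p = 0.155, and 0.043 without a filter), both named after their values were seen, and C1qa was at 0. Markers of CD4 and regulatory T cells (6 genes) summed to 38.6 to 62.4 in IF and 81.5 to 133 in DC, and 3 of the 4 tested had negative values. Each of these 4 lists separated the groups without overlap, which in an exact two-sided permutation test on 3 against 3 libraries gives p = 0.1, the smallest possible. Neutrophil and erythrocyte markers overlapped. The part of other cells in the differences above was not tested, and in bulk RNA fewer cells of a type and less RNA per cell cannot be told apart.

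Dendritic cell transcripts were checked because dendritic cells were present in 1 of the 2 cultures. The full list of 39 genes summed to 948 to 1180 CPM in IF and 1384 to 1532 in DC (p = 0.1, the smallest possible, exact permutation test). Irf8, a factor that T cells also express, had 4695 of the 12541 counts of that sum in DC replicate 2. Without Irf8, the list summed to 876, 892 and 1082 CPM in IF and 1333, 959 and 1407 CPM in DC, so that the groups overlapped (p = 0.2, same exact test). The 11 defining genes summed to 313 to 482 in IF and 302 to 493 in DC (p = 0.9, same exact test), so these ranges overlap. Among the defining genes, the MHC class II genes H2-Aa, H2-Ab1 and H2-Eb1 and their chaperone Cd74 made up most of that sum in both groups. Clec9a, Cd209a, Xcr1 and Zbtb46 were each at or below 2.96 CPM in all 6 libraries. Flt3, the receptor for Flt3 ligand, was at 1.79, 3.35 and 6.94 CPM in IF and 2.39, 2.77 and 3.59 CPM in DC, and Siglech, a lectin of plasmacytoid dendritic cells, at 0.476, 0 and 1.17 CPM in IF and 2.62, 0.442 and 4.44 CPM in DC. Both overlapped and did not pass (adjusted p = 0.831 and 0.453). Itgax, the CD11c integrin, was higher with IF, at 14.3, 14 and 31.8 CPM in IF and 2.05, 2.1 and 7.69 CPM in DC (log2 fold change 2.32 ± 0.46, adjusted p = 0.0124), and did not pass without IF replicate 3 (0.0942) or DC replicate 1 (0.0652) or with only the 6 libraries in the fit (0.15), and its value was 3.27 without DC replicate 3. Of the 33 tested genes of the full list, 3 were lower with IF (Cacnb3, Ccl22 and Ciita), 2 were higher (Itgax and Fcer1g) and 28 did not pass, with a median log2 fold change of -0.28. Libraries did not overlap for 5 genes with lower IF values (Fscn1 and Cd86 beside those 3) and 4 with higher ones (Sirpa and Tyrobp beside those 2). Over all genes tested, 9.11% did not overlap with IF below DC and 10.7% with IF above DC. Fscn1, an actin-bundling protein of mature dendritic cells named after its values were seen, was at 5.83, 21.5 and 43.8 CPM in IF and 94.8, 87.6 and 72.9 CPM in DC and did not pass (log2 fold change -1.82, adjusted p = 0.155), but did without a filter on low counts (1.21e-07). The log2 fold change of Fscn1 was -2.64 without IF replicate 3 and -1.37 without IF replicate 1. Cacnb3, a calcium channel subunit, was at 0.476, 0.598 and 2.09 CPM in IF and 8.42, 13.9 and 13.8 CPM in DC (log2 fold change -3.39 ± 0.63, adjusted p = 0.00795) and Ccl22, a chemokine, at 0.714, 1.55 and 1.28 CPM in IF and 10.1, 11.1 and 6.41 CPM in DC (log2 fold change -2.93 ± 0.62, adjusted p = 0.0188). Cacnb3 had -4.45 without IF replicate 3 and did not pass without IF replicate 2 (0.054), and Ccl22 without IF replicate 2 or 3 or DC replicate 1 (0.0599 to 0.0862). The class II transactivator Ciita, at 0, 0 and 0.255 CPM in IF and 1.59, 0.885 and 3.08 CPM in DC, passed at 0.0483 and in 1 of the 6 fits that leave out a library, the one without DC replicate 2. Ciita did not pass with thinned counts (0.144) or with a replicate block (0.0719). The part of remaining dendritic cells in the lower interferon, NF-kappaB and chemokine genes was not tested.

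Most genes of cell division had lower values with IF, few passed, and the DC libraries differed among themselves. Of 48 tested DNA replication genes none passed (0 at adjusted p under 0.05 by edgeR, 3 by DESeq2), although 45 had negative values and the median was -0.56. Of 61 tested mitosis genes 1 passed, the spindle gene Hmmr, at 5.0, 4.06 and 4.08 CPM in IF and 13.2, 17.5 and 10 CPM in DC (log2 fold change -1.63 ± 0.40, adjusted p = 0.0396), which did not pass without IF replicate 2 or 3 or DC replicate 1 or 2 (0.1 to 0.185) or with only the 6 libraries in the fit (0.0611). DESeq2 called 10 mitosis genes as lower, and without a filter on low counts 19 mitosis and 7 DNA replication genes were lower. Of the 61, 58 had negative values, with a median of -1.03. Relative to unstimulated cells, the median of the mitosis genes on the log2(CPM + 1) scale was -0.08, -0.14 and -0.03 in IF replicates 1, 2 and 3 and 0.85, 1.41 and -0.15 in DC replicates 1, 2 and 3. DC replicates 1 and 2 were thus above all IF libraries and DC replicate 3 was at the IF level. For DNA replication the medians were 0.38, 0.66 and 0.94 in IF and 1.00, 1.78 and 0.32 in DC. Top2a, the topoisomerase of dividing cells, shows the same order, at 38.7, 39.2 and 40.2 CPM in IF and 106, 157 and 39.1 CPM in DC (log2 fold change -1.35). Its adjusted p was 0.0506 with all libraries and 0.00133 without DC replicate 3, and Mki67, the proliferation marker Ki-67, at 19.2, 18.4 and 20.9 CPM in IF and 44.5, 70.6 and 18.2 CPM in DC, had 0.0847 and 0.0036. DESeq2 called both as lower (adjusted p = 0.00645 for Top2a and 0.0267 for Mki67), as did the fits with thinned counts (0.0339 and 0.0311) and without a filter (1.84e-05 and 0.0032). Top2a also passed with DESeq2 size factors (0.0484), with library size alone (0.0355), with a mean of at least 10 CPM (0.0384) and with the technical profile left out (0.0437). Without DC replicate 3, 13 mitosis and 3 DNA replication genes were lower with IF, and 5 mitosis genes were without IF replicate 1. Against 0 h, 25 of the 48 DNA replication genes were higher with DC and 5 with IF, and 7 of the 61 mitosis genes were higher with DC and none with IF. Of all genes tested, 3.41% were higher with DC and 2.63% with IF. E2f2, a cell cycle factor, was at 7.5, 8.13 and 11.1 CPM in IF and 26.1, 24.1 and 24.7 CPM in DC, without overlap, and did not pass (adjusted p = 0.0833), but passed by DESeq2 (0.0147), with only the 6 libraries in the fit (0.0316) and without a filter (0.00152).

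**Figure D4:**
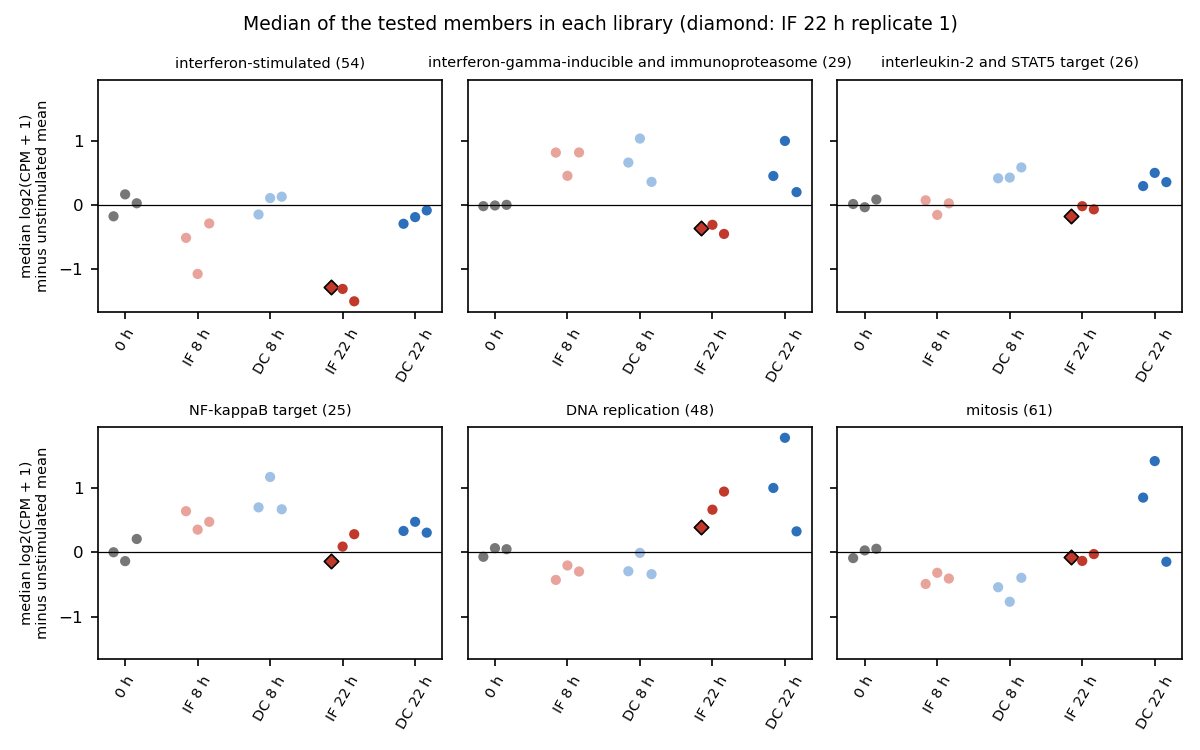
Median over each list's tested members (number in brackets) of log2(CPM + 1) minus its mean in unstimulated cells, for every library of the 5 groups; diamonds mark IF 22 h replicate 1. For the interferon-stimulated list the 3 IF 22 h libraries lie at -1.28, -1.30 and -1.50 and the 3 DC 22 h libraries at -0.29, -0.19 and -0.08, whereas for mitosis DC replicate 3 lies with the IF libraries.

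No member passed in the housekeeping lists for metabolism and ribosome biogenesis. Their median log2 fold change was 0.06 for glycolysis, 0.09 for cholesterol and fatty acid synthesis, -0.19 for the amino acid response, -0.22 for ribosome biogenesis and 0.13 for nuclear-encoded respiratory chain subunits. For ribosome biogenesis, 41 of 52 values were negative. Of 77 cytosolic ribosomal proteins 70 had positive values and 6 were higher with IF (1.23% of all genes tested were), with a median of 0.33. That median was 0.11 with IF replicate 1 alone. Without replicate 1 it was 0.43 and 36 were higher, against 2.15% of all genes tested. Of 15 mitochondrially encoded genes 3 were higher, the ATP synthase subunits mtAtp6 and mtAtp8 and the complex I subunit mtNd3. With replicate 1 alone their log2 fold changes were 0.37, 0.20 and 0.20, against 0.80, 0.85 and 0.81 with all libraries. The count of 3 was 6 without IF replicate 1, where 2 members were lower. It was 0 without IF replicate 2, IF replicate 3 or DC replicate 1, 1 without DC replicate 2 or 3, and 0 with only the 6 libraries in the fit, and mtAtp8 did not pass with a replicate block (0.0516), thinned counts (0.0597) or library size alone (0.0509). Over all 15 genes, the median of log2(CPM + 1) relative to unstimulated cells was -0.11, -0.20 and -0.15 in IF replicates 1, 2 and 3 and -0.41, -0.65 and -0.64 in DC, so that replicate 1 was the highest of the 6 libraries.

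IF replicate 1, which lacks that profile, was set against the 3 DC libraries by itself. It lay outside the DC range, on the side of the group difference, for 262 of the 263 genes, again with the exception of 2810417H13Rik, and it lay outside the DC range for 48.1% of all genes tested. Replicate 1 is part of the groups that chose the 263 genes, so this count describes them and is no independent test. In a fit without IF replicates 2 and 3, in which the single library is assumed to vary like the other groups, 8 of 11889 genes passed (0.0673%). These were Cd28, Myb, Itm2a, Ctla2a and Ephx1, which were higher (0.0421%), and Rtp4, Bcl3 and Lad1, which were lower (0.0252%), and all 8 are among the 263. The distance from the DC mean was smaller in replicate 1 than in the other IF libraries: the median over the 133 higher genes was 0.93 log2 units in replicate 1 and 1.15 in replicates 2 and 3, and over the 130 lower genes -1.42 and -1.76. Replicate 1 was the lowest IF library in 101 of the 133 higher genes and the highest in 55 of the 130 lower genes. Without replicate 1, 759 of 11151 genes passed (6.81%), 240 higher (2.15%) and 519 lower (4.65%), with 246 of them among the 263. Of the 759, 125 belong to the technical profile of replicates 2 and 3, against 7 of the 263. The larger number is therefore in part that profile and not a gain in differences between the stimuli.

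**Figure D5:**
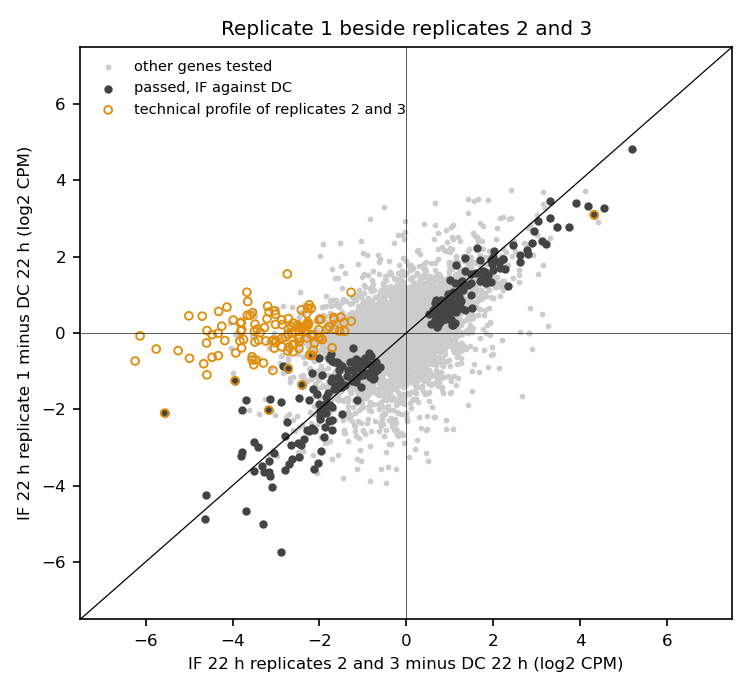
Each point is a gene, with the log2 CPM difference from the DC 22 h mean in IF replicates 2 and 3 on the x axis and in IF replicate 1 on the y axis, and the line marks equal differences. Genes that passed lie along the line, with medians of 1.15 and 0.93 for the higher genes, whereas the 127 low genes of the technical profile (open circles) lie left of it, with a median of 0.03 and a range of -2.10 to 1.55 on the y axis, and Nrgn lies right of it.

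DC replicate 2 was the highest of the 3 DC libraries in 57 of the 130 lower genes (43.8%, against 39.2% of all genes tested), and in 46 of those DC replicate 2 was also the highest at 8 h (80.7%, against 59.1% of all genes tested in which it was the highest at 22 h). It was the lowest DC library in 61 of the 133 higher genes (45.9%, against 42.1% of all genes tested). Without it 265 genes passed, 180 of them among the 263, and 25 of the interferon-stimulated genes were lower.

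The difference at 22 h was set against the difference at 8 h, which comes from other libraries with the same donor numbers. Deviations of same-numbered DC libraries from their group means at 8 h and 22 h had correlations across genes of 0.12, 0.40 and 0.24, while those of IF had at most 0.0148. Differently numbered DC libraries ranged from -0.307 to 0.117, so replicates 2 and 3 stood out and replicate 1 did not. The counts shared by both times are therefore given as a description. The 8 h test called 72 genes (0.665% of genes tested), 25 higher (0.231%) and 47 lower (0.434%) with IF. Of the 263 genes, 43 also passed at 8 h, all in the same direction, which is 16.3% of the 22 h and 59.7% of the 8 h genes. These 43 comprise 19 higher genes, such as Spry1, Cd28, Myb and Itm2a, and 24 lower genes, such as Rtp4, Cish, Socs3, Bcl3 and Igfbp4. A positive 8 h value was found for 119 of the 133 higher genes and a negative one for 110 of the 130 lower genes. Rtp4 shows an intermediate 8 h level with IF: it was at 52.6, 29.2 and 71.3 CPM in IF at 8 h and 126, 153 and 173 CPM in DC at 8 h. In the test of whether the difference itself changed from 8 h to 22 h, no gene passed (0% of genes tested, edgeR, smallest adjusted p = 0.0819), 858 had an unadjusted p under 0.05, and DESeq2 gave 40 genes. With a replicate block none passed either. Without IF replicate 1 that number was 279 by edgeR, and without DC replicate 3 it was 3, so a gene that passed at 22 h and not at 8 h is not thereby shown to differ between the times.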

How the data were processed

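RNA was measured in 15 libraries of sorted CD8+ OT-I T cells, prepared with an adapted CEL-seq protocol (oligo-dT priming with sample barcodes, pooling and in vitro transcription), per the labels' protocols. The deposited tables hold whole-number read counts per gene, without normalization. BWA and the mouse build mm10 are named in the submitters' processing notes, without a role or version. The counting program, the annotation, the use of strand and of molecular identifiers are not given in the sources used here, so antisense or overlapping genes cannot be told apart and amplified reads need not be independent molecules.

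The main analysis used edgeR 4.0.16 (R 4.3.3, with limma 3.58.1 as its base). Low genes were removed by filterByExpr (minimum count 10, minimum total 15), at most 0.124% of a library's counts. Libraries were scaled by TMM, and the quasi-likelihood fit of all 15 libraries had 1 mean for each of the 5 groups. Two-sided p-values were adjusted by Benjamini-Hochberg over all genes tested, with a threshold of 0.05. Fold changes are log2 values with a prior count of 0.125 and standard errors, and CPM are TMM-scaled. The fit was checked on simulated data. No interval is given for single counts, and the test's spread covers counting error and replicates together. Same-numbered IF and DC libraries at 22 h deviated from their group means with correlations of 0.06, 0.02 and -0.19, so the replicate numbers, which the labels give as donors, were not used to pair them, and a fit with a replicate block was an alternative.

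Groups came from the sample titles. Named genes are the 10 highest and 10 lowest fold changes among genes that passed, averaged 50 counts or more in the higher group, exceeded 3 counts in some library of the lower group and did not overlap in CPM, plus up to 5 genes with the smallest p-value in each list and the defining dendritic cell markers; others are said to be named after their values were seen. The members and lists (852 genes in 33 lists) were chosen with earlier results of these data known. Some list genes are not reported here by name, and they count in the sums and counts of their lists. Gene positions and exon overlaps are from GENCODE vM21 (GRCm38) and promoter windows from RefSeq (GRCm38.p6). Alternatives were other scalings (DESeq2 size factors, library size alone), no filter or a mean CPM of 10 or more, the DESeq2 test (version 1.42.0), only the groups compared, a replicate block, thinned counts, a threshold of 0.01, the mitochondrial chromosome or the technical profile left out, the dendritic cell list without Irf8 (the last 2 chosen after seeing the data), each library left out, and IF replicate 1 alone.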

Additional observations from a re-analysis of the deposited data

How the results depend on the processing

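All log2 fold changes of the 96 genes followed through the alternatives kept their sign under every alternative run. Of the 86 named genes that passed, 36 also passed in every alternative other than the threshold of 0.01, a single library left out and replicate 1 alone. Of 1694 values of these genes under all alternatives, 352 no longer passed and 29 newly did. The number of genes that differed at 22 h, 263, was 264 with DESeq2 size factors, 268 with library size alone (88 higher, 180 lower, against 133 and 130), 706 without a filter on low counts (246 higher, 460 lower), 563 by DESeq2 (260 higher, 303 lower), 70 with only the groups compared (27 higher, 43 lower), 89 at a threshold of 0.01 (41 higher, 48 lower), and 8 with IF replicate 1 alone (5 higher, 3 lower). Leaving out 1 library gave 90 to 759 genes, 41 to 240 of them higher and 49 to 519 lower. With the replicate block it was 245 (123 higher, 122 lower), and it ended the calls of 8 named genes and began that of Ccl4, as given beside them. Same-numbered IF and DC libraries at 22 h did not deviate together, whereas those of DC at 8 h and 22 h did. The number of genes whose difference changed between the times, 0, was 155 without a filter, 40 by DESeq2 and 0 to 279 when 1 library was left out. The difference in dendritic cell marker share, -420.4 CPM of the library total, was -47.5 for the defining markers alone and -283 without Irf8, which was left out after seeing the data. With 3 libraries a group the exact tests cannot go below p = 0.1, and genes under the count filter were not tested.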
